A study of Mus musculus with 11 samples.

Results

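The genes described here are 9 markers of oligodendrocyte precursor cells, Pdgfra, Vcan, Ptprz1, Cacng4, Lhfpl3, Pcdh15, Xylt1, Neu4 and Tnr. They were taken by gene symbol from a table of 16228 genes, and Cspg4 and the transcription factors of the lineage were left out of the choice. All 9 were in the table, and all 9 were among the 14330 genes tested. Levels come from bulk RNA sequencing of 4 mm punches of mouse cerebral cortex at postnatal day 30, with 1 library per sample from 11 samples. The series compared mice whose NG2 lineage cells were targeted for 1 of 2 atypical protein kinase C paralogs with control mice. The Prkci cKO group held 4 samples labelled Ng2 Cre+ Prkci f/f. The Prkcz cKO group held 3 samples labelled Ng2-Cre+ Prkcz f/f. The control group held 4 samples, of which 2 (replicates 1 and 2) carried the label Pkcz f/+ and the other 2 (replicates 3 and 4) the label Pkcz f/f, with no Cre named. No sample of the Prkci line without Cre, and none with Cre alone, was among them, so Cre and mouse line cannot be told apart from the loss of either kinase.

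Oligodendrocyte precursors are the dividing glial cells that spread through grey and white matter and give rise to myelinating oligodendrocytes. They survive and divide in response to platelet-derived growth factor through the receptor PDGFRA, they receive synaptic input from neurons, and they surround themselves with chondroitin sulphate proteoglycans. As they differentiate they switch off several of these genes and start the myelin program. Ng2-Cre uses the regulatory sequence of Cspg4, which is active in precursors and also in pericytes of brain vessels. Several of the 9 genes are expressed in other cells of the cortex as well: Ptprz1 in astrocytes, Tnr in neurons, and Pdgfra in fibroblasts of the meninges. In RNA from whole tissue, fewer cells of a type and less RNA per cell cannot be told apart.

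The deposited values are normalised expression levels scaled for library size, with the exact scaling not given in the sources used here. Steps between low values gave an estimated depth of 14.8 M reads for Prkcz cKO replicate 3 and of 20.6 to 28.2 M reads for the other 10 libraries. On that estimate Neu4, the lowest of the 9 genes, rested on 148 to 271 reads per library and Ptprz1, the highest, on 2221 to 6421. Prkci, the targeted kinase, averaged 67.0 ± 1.47 in Prkci cKO and 87.8 ± 2.52 in controls (SD, n = 4 each), and fell by 0.39 on the log2 scale (limma, SE 0.045, adjusted p = 9.84e-04). Prkcz averaged 278 ± 15.1 in Prkcz cKO (SD, n = 3) and 323 ± 20.2 in controls (SD, n = 4), a log2 change of -0.22 (SE 0.055) that missed the threshold (limma adjusted p = 0.0966). Prkcz cKO replicate 3 stood apart from the other libraries. It had the lowest value of all 11 libraries for 5 of the 9 genes and the highest for 1, its 7 striatal marker genes summed to 1228 against 252 to 886 in the others, and its 10 astrocyte markers summed to 4541 against 5691 to 6734. Results on the 9 genes that involve this library are therefore given with and without it.

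None of the 9 precursor identity genes passed in either knockout or between the knockouts (limma on log2(value + 0.5), Benjamini-Hochberg adjustment over all 14330 genes, threshold 0.05). Of all genes tested, 1.61% passed in Prkci cKO (1.51% lower and 0.0977% higher than controls). In Prkcz cKO 0.649% did (0.621% lower and 0.0279% higher than controls). Between the knockouts 0.3% did (0.0628% lower and 0.237% higher in Prkci cKO). At an unadjusted p under 0.05, 4 of the 9 were lower and 0 higher in Prkci cKO, against 7.79% of all genes lower and 4.28% higher (12.1% in all). In Prkcz cKO 3 of the 9 were lower and 0 higher, against 9.34% and 5.62% of all genes (2144 genes, 15% in all). Without Prkcz cKO replicate 3 the counts were 4 and 0, and the count over all genes was 1260 in both directions together. Between Prkci cKO and Prkcz cKO 1 was lower and 2 were higher in Prkci cKO, against 6.22% and 9.76% of all genes (2290 genes, 16% in all). Without Prkcz cKO replicate 3 the counts were 0 and 1, and the count over all genes was 1041 in both directions together. The median log2 change of the 9 genes was -0.18 in Prkci cKO and -0.17 in Prkcz cKO, while the median over all genes tested lay within 0.01 of 0 in both. Without Prkci cKO replicate 2 the median in Prkci cKO was -0.10. The log2 change was below 0 for 6 of 9 genes in Prkci cKO, against 49.1% of all genes, and for 9 of 9 in Prkcz cKO, against 51.8%, or 8 of 9 without replicate 3. Between Prkci cKO and Prkcz cKO it was below 0 for 3 of 9, against 51.5% of all genes. Between the knockouts the median was 0.20, or 0.02 without Prkcz cKO replicate 3 and 0.12 without Prkci cKO replicate 4. Both comparisons with controls share the same 4 control libraries.

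**Figure D1:**
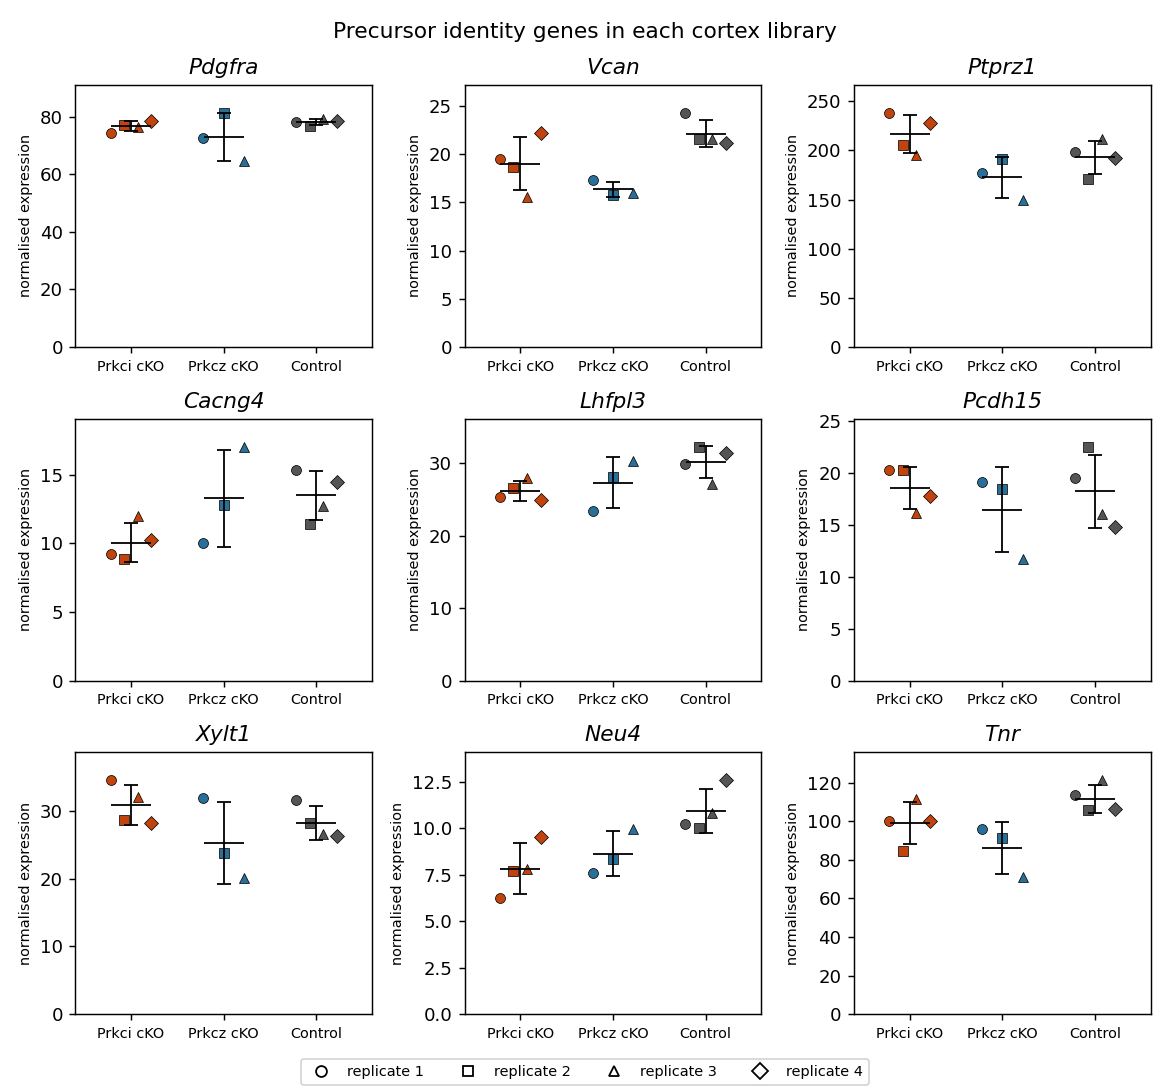
Normalised expression (y axis, deposited units, starting at 0) of each precursor identity gene in every library, with Prkci cKO, Prkcz cKO and control libraries from left to right; symbols mark replicate numbers, and bars show the mean ± SD. Pdgfra lies between 74.5 and 78.8 in Prkci cKO and between 76.9 and 79.3 in controls, whereas Neu4 in Prkci cKO and Vcan, Neu4 and Tnr in Prkcz cKO lie below every control.

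Pdgfra (chromosome 5, 75152292 to 75198215, GRCm38, plus strand) encodes the receptor for platelet-derived growth factor that keeps precursors alive and dividing. Its level was 74.5, 77.1, 76.7 and 78.8 in Prkci cKO replicates 1 to 4, 72.8, 81.4 and 64.7 in Prkcz cKO replicates 1 to 3, and 78.3, 76.9, 79.3 and 78.6 in control replicates 1 to 4. The Prkci cKO and control libraries overlapped, and the Prkcz cKO libraries lay on both sides of the controls. In Prkci cKO the log2 change was -0.03 (limma, SE 0.059, adjusted p = 0.898), with a 95% interval from -0.15 to 0.10, or -10.1% to 7.0%, and it was -0.01 without Prkci cKO replicate 1. In Prkcz cKO it was -0.11 (limma, SE 0.063, adjusted p = 0.443), with an interval from -0.24 to 0.03, and it was -0.02 without Prkcz cKO replicate 3 and -0.19 without replicate 2. Prkci cKO and Prkcz cKO differed by 0.08 (limma, SE 0.063, adjusted p = 0.554), a value that became -0.0046 without Prkcz cKO replicate 3 and 0.16 without replicate 2. Fibroblasts of the meninges also express Pdgfra. Of 9 marker genes of these cells none was at 0, and they summed to 228 to 288 in Prkci cKO, 202 to 227 in Prkcz cKO and 122 to 306 in controls; their part in the Pdgfra values was not tested.

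Ptprz1 (chromosome 6, 22875502 to 23052916, plus strand) encodes a receptor tyrosine phosphatase whose secreted form, phosphacan, is a proteoglycan of the brain matrix. It measured 238, 205, 196 and 228 in Prkci cKO replicates 1 to 4, 177, 191 and 150 in Prkcz cKO replicates 1 to 3, and 199, 171, 211 and 192 in control replicates 1 to 4. All 4 Prkci cKO libraries lay above all 3 Prkcz cKO libraries, and both groups overlapped the controls. The log2 difference between Prkci cKO and Prkcz cKO was 0.33 (SE 0.091, 95% interval 0.13 to 0.53), or 25.7%, with a limma unadjusted p of 0.00293 and adjusted p of 0.151. Ptprz1 was the 1 member of 9 whose values did not overlap in this direction, against 7.36% of all genes tested, and no member did so in the other direction, against 6.43%. Without Prkcz cKO replicate 3 the difference was 0.23 (limma, SE 0.088, adjusted p = 0.563). Against controls the log2 change was 0.16 (limma, SE 0.084, adjusted p = 0.479) in Prkci cKO, or 0.11 without Control replicate 2, and -0.17 (limma, SE 0.091, adjusted p = 0.418) in Prkcz cKO, or -0.07 without replicate 3. Astrocytes also express Ptprz1. Their 10 markers, none of them at 0, summed to 5958 to 6734 in Prkci cKO, 4541 to 5745 in Prkcz cKO and 5919 to 6522 in controls. All 3 Prkcz cKO sums lay below every other library, and their part in the Ptprz1 values was not tested.

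Among the matrix genes, Vcan (chromosome 13, 89655312 to 89742509, minus strand) encodes versican, a large chondroitin sulphate proteoglycan that binds hyaluronan. Its level was 19.5, 18.7, 15.6 and 22.3 in Prkci cKO replicates 1 to 4, 17.3, 15.8 and 16.0 in Prkcz cKO replicates 1 to 3, and 24.3, 21.6, 21.6 and 21.2 in control replicates 1 to 4. All 3 Prkcz cKO libraries and 3 of 4 Prkci cKO libraries lay below every control. In Prkcz cKO the log2 change was -0.43 (SE 0.099, 95% interval -0.64 to -0.21), or -25.5%, with a limma unadjusted p of 7.67e-04 and adjusted p of 0.0718. Without Prkcz cKO replicate 3 it was -0.41 (limma adjusted p = 0.202). In Prkci cKO it was -0.23 (limma, SE 0.091, 95% interval -0.42 to -0.03, adjusted p = 0.328), and -0.14 without Prkci cKO replicate 3. The difference between Prkci cKO and Prkcz cKO, 0.20 (limma, SE 0.099, adjusted p = 0.338), did not pass, and it was 0.18 without Prkcz cKO replicate 3 and 0.12 without Prkci cKO replicate 4.

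Tnr (chromosome 1, 159523769 to 159931729, plus strand) encodes tenascin-R, a matrix glycoprotein of perineuronal nets and nodes of Ranvier. It measured 100.2, 84.7, 112 and 100.3 in Prkci cKO replicates 1 to 4, 96.1, 91.4 and 71.0 in Prkcz cKO replicates 1 to 3, and 114, 106, 121 and 106 in control replicates 1 to 4. All 3 Prkcz cKO libraries and 3 of 4 Prkci cKO libraries lay below every control. In Prkcz cKO the log2 change was -0.38 (SE 0.103, 95% interval -0.60 to -0.16), with a limma unadjusted p of 0.00244 and adjusted p of 0.116. Leaving out Prkcz cKO replicate 3, whose value was the lowest of all 11, gave -0.25 (limma, SE 0.090, adjusted p = 0.379). In Prkci cKO the change was -0.18 (limma, SE 0.095, adjusted p = 0.507), and -0.10 without Prkci cKO replicate 2, the lowest of its group. Prkci cKO and Prkcz cKO differed by 0.21 (limma, SE 0.103, adjusted p = 0.340), or 0.07 without Prkcz cKO replicate 3. The 9 interneuron markers, from cells that can also express Tnr, summed to 1001 to 1117 in Prkci cKO, 1083 to 1141 in Prkcz cKO and 1009 to 1116 in controls, and their part in the Tnr values was not tested.

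Xylt1 (chromosome 7, 117380979 to 117673580, plus strand) encodes a xylosyltransferase that starts the sugar chains of proteoglycans. Its level was 34.5, 28.7, 32.1 and 28.3 in Prkci cKO replicates 1 to 4, 31.9, 23.8 and 20.1 in Prkcz cKO replicates 1 to 3, and 31.6, 28.3, 26.6 and 26.3 in control replicates 1 to 4. The 3 groups overlapped, and Prkcz cKO spanned the widest range. The log2 difference between Prkci cKO and Prkcz cKO was 0.31 (limma, SE 0.126, 95% interval 0.03 to 0.58, adjusted p = 0.273). It was 0.16 (limma adjusted p = 0.818) without Prkcz cKO replicate 3 and 0.48 (limma adjusted p = 0.0475) without Prkcz cKO replicate 1, so single libraries decided its size and its call. Against controls the change was 0.13 (limma, SE 0.117, adjusted p = 0.727) in Prkci cKO, or 0.07 without Prkci cKO replicate 1. In Prkcz cKO it was -0.18 (limma, SE 0.126, adjusted p = 0.528), or -0.03 without Prkcz cKO replicate 3 and -0.36 (limma adjusted p = 0.112) without replicate 1.

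Neu4 (chromosome 1, 94020451 to 94028334, plus strand) encodes a sialidase, an enzyme that removes sialic acid from glycans. Its level was 6.24, 7.69, 7.80 and 9.55 in Prkci cKO replicates 1 to 4, 7.57, 8.34 and 9.96 in Prkcz cKO replicates 1 to 3, and 10.2, 9.99, 10.8 and 12.6 in control replicates 1 to 4. Every library of both knockouts lay below every control, Prkcz cKO replicate 3 only just. In Prkci cKO the log2 change was -0.46 (SE 0.122, 95% interval -0.73 to -0.20), or -27.5%, with a limma unadjusted p of 0.00199 and adjusted p of 0.0814. Without Prkci cKO replicate 4, the highest of its group, it was -0.56 (SE 0.118) and passed (limma adjusted p = 0.0322). Without any other single library it did not pass (limma adjusted p between 0.106 and 0.228). In Prkcz cKO the change was -0.33 (limma, SE 0.132, 95% interval -0.61 to -0.04, adjusted p = 0.271), and -0.43 (limma adjusted p = 0.314) without replicate 3. Prkci cKO and Prkcz cKO differed by -0.14 (SE 0.132), with a 95% interval from -0.42 to 0.14 (limma adjusted p = 0.616), and single libraries left out moved this from -0.23 (without Prkci cKO replicate 4) to -0.04 (without Prkci cKO replicate 1 or Prkcz cKO replicate 3), with -0.22 without Prkcz cKO replicate 1.

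Counting members whose groups did not overlap, 1 of 9 (Neu4) lay lower in Prkci cKO than in controls, against 5.32% of all genes tested. The count was 4 (Cacng4, Lhfpl3, Neu4 and Tnr) without Prkci cKO replicate 3, and 2 without Control replicate 2, Control replicate 3 or Prkci cKO replicate 4. In Prkcz cKO 3 of 9 (Vcan, Neu4 and Tnr) lay lower, against 6.72% of all genes. Leaving out a library can add to such a count but cannot lower it, so counts without single libraries are no test of it. The share over all genes was not computed for those counts. No member lay above every control in either knockout, against 3.18% of all genes in Prkci cKO and 5.16% in Prkcz cKO.

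The remaining genes encode membrane proteins. Cacng4 (chromosome 11, 107732357 to 107794557, minus strand) encodes a transmembrane regulator of AMPA-type glutamate receptors. It measured 9.23, 8.84, 11.98 and 10.2 in Prkci cKO replicates 1 to 4, 10.04, 12.8 and 17.1 in Prkcz cKO replicates 1 to 3, and 15.4, 11.5, 12.7 and 14.5 in control replicates 1 to 4. Prkci cKO replicates 1, 2 and 4 lay below every control, and replicate 3 did not. The log2 change in Prkci cKO was -0.41 (limma, SE 0.144, 95% interval -0.72 to -0.10, adjusted p = 0.247). In Prkcz cKO it was -0.04 (limma, SE 0.156, adjusted p = 0.916), and it ran from -0.23 without replicate 3, the highest library of all, to 0.14 without another single library, so no direction is given. Prkci cKO and Prkcz cKO differed by -0.36 (limma, SE 0.156, adjusted p = 0.284), and by -0.18 (limma adjusted p = 0.836) without Prkcz cKO replicate 3.

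Lhfpl3 (chromosome 5, 22746059 to 23275597, plus strand) encodes a small membrane protein of the LHFPL family. Its level was 25.3, 26.5, 28.0 and 24.9 in Prkci cKO replicates 1 to 4, 23.4, 28.2 and 30.3 in Prkcz cKO replicates 1 to 3, and 29.9, 32.3, 27.2 and 31.4 in control replicates 1 to 4. Below every control lay 3 of 4 Prkci cKO libraries and 1 of 3 Prkcz cKO libraries. The log2 change was -0.20 in Prkci cKO (limma, SE 0.080, 95% interval -0.37 to -0.03, adjusted p = 0.322) and -0.15 in Prkcz cKO (limma, SE 0.087, adjusted p = 0.438), or -0.23 without Prkcz cKO replicate 3 and -0.04 (limma adjusted p = 0.803) without replicate 1. Prkci cKO and Prkcz cKO differed by -0.05 (SE 0.087), with a 95% interval from -0.24 to 0.13 (limma adjusted p = 0.790), and by 0.02 without Prkcz cKO replicate 3 and -0.16 without replicate 1, so no direction is given for that difference.

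Pcdh15 (chromosome 10, 73099342 to 74649737, plus strand) encodes a protocadherin best known from the tip links of inner ear hair cells. It measured 20.2, 20.2, 16.1 and 17.7 in Prkci cKO replicates 1 to 4, 19.1, 18.4 and 11.7 in Prkcz cKO replicates 1 to 3, and 19.5, 22.5, 16.0 and 14.8 in control replicates 1 to 4. The groups overlapped widely. The log2 change was 0.04 in Prkci cKO (limma, SE 0.154, 95% interval -0.29 to 0.37, adjusted p = 0.950) and -0.16 in Prkcz cKO (limma, SE 0.166, 95% interval -0.52 to 0.20, adjusted p = 0.678). Prkci cKO and Prkcz cKO differed by 0.20 (limma, SE 0.166, adjusted p = 0.572), or -0.02 without Prkcz cKO replicate 3. Without that library the change in Prkcz cKO against controls was 0.06, and in Prkci cKO it ran from -0.05 to 0.15 as single libraries were left out, so no direction is given for Pcdh15.

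**Figure D2:**
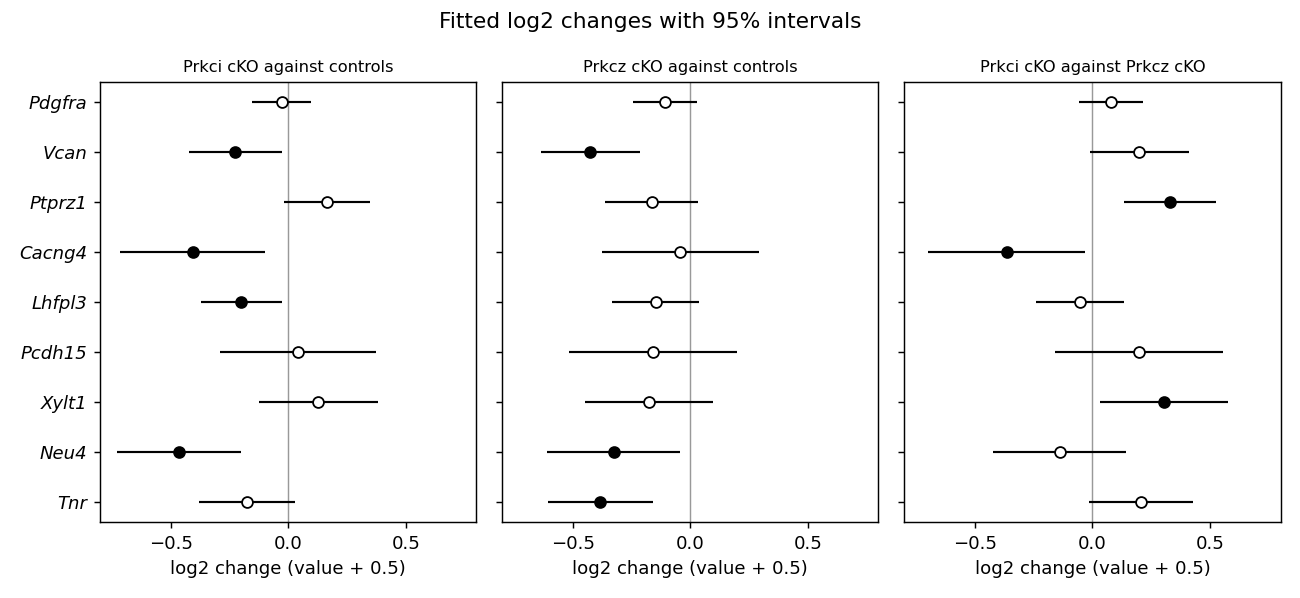
Limma log2 changes on the log2(value + 0.5) scale (x axis) with 95% intervals for the 9 genes, with 1 panel for each knockout against controls and 1 for Prkci cKO against Prkcz cKO; filled circles mark an unadjusted p under 0.05, and no gene passed after adjustment over 14330 genes. Neu4 and Vcan have filled circles in both comparisons with controls, and between the knockouts Ptprz1 and Xylt1 lie to the right of 0 and Cacng4 to the left (all 3 moved toward 0 without Prkcz cKO replicate 3).

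Promoter sequences are shown for 4 genes, the 3 whose libraries did not overlap the controls in a knockout and Pdgfra, the member with the smallest change in Prkci cKO. They come from RefSeq (GRCm38.p6), which had an entry for 7 of the 9 genes, and run from 250 bases before to 50 bases after the annotated start. Capitals mark matches, on either strand, to motifs of factor families of the lineage: the E-boxes CAGCTG and CAGATG, bound by basic helix-loop-helix factors, and the cores ACAAT and ACAAAG, bound by SOX factors. The windows are chr1:94020243-94020542 (plus strand) for Neu4, chr13:89742463-89742762 (minus strand) for Vcan, chr1:159523519-159523818 (plus strand) for Tnr and chr5:75152001-75152300 (plus strand) for Pdgfra.
Neu4: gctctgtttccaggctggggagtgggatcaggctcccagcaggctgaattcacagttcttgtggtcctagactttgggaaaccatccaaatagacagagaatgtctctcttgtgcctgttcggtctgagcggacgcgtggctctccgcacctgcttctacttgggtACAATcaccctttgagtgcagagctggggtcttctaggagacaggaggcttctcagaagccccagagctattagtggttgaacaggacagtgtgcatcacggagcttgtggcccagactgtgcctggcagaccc
Vcan: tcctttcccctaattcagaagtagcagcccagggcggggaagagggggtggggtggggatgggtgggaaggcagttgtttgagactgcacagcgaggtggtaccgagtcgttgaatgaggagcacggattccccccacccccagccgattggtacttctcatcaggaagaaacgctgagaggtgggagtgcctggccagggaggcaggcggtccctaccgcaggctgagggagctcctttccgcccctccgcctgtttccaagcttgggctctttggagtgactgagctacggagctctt
Tnr: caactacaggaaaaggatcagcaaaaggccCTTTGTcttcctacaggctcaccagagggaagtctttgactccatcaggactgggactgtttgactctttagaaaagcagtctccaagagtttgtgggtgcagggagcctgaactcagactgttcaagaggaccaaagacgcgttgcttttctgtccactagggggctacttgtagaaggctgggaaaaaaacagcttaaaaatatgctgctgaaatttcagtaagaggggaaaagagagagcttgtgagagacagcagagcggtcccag
Pdgfra: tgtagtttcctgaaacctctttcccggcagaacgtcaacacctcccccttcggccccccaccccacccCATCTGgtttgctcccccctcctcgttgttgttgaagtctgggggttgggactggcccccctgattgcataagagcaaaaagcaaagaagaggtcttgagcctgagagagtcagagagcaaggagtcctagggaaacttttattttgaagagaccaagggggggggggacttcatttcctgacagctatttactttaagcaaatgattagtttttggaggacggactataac
The Neu4 window held 1 match to ACAAT, a motif found in 31.0% of 32851 promoters of the same length. The Tnr window held 1 match to ACAAAG, found in 18.7% of promoters, and the Pdgfra window 1 match to CAGATG, found in 17.2%. No match to CAGCTG, found in 16.3% of promoters, lay in any of the 4 windows, and the Vcan window held none of the 4 motifs, which says only that these letters are not in it. No 2 matches overlapped in a window, and a match describes letters, not binding.

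Libraries of 1 group varied more for some members than for others. The pooled SD within groups on the log2 scale was 0.09 for Pdgfra, a spread larger than that of 31.5% of genes, and 0.27 for Pcdh15, with the other members between them, against a median of 0.11 over all genes tested. In Prkcz cKO replicate 3, Pdgfra, Ptprz1, Pcdh15, Xylt1 and Tnr were at the lowest level of all 11 libraries, while Cacng4 was at the highest. No control library was the lowest of the 11 for any of the 9 genes. Among the controls, the Pkcz f/f and Pkcz f/+ libraries did not overlap for 4 of the 9 genes. The share over all genes was not computed, and 2 libraries against 2 often separate by chance. Neu4 was 10.8 to 12.6 in Pkcz f/f and 9.99 to 10.2 in Pkcz f/+ controls, and Pdgfra was 78.6 to 79.3 and 76.9 to 78.3. Xylt1 was 26.3 to 26.6 in Pkcz f/f and 28.3 to 31.6 in Pkcz f/+ controls, and Pcdh15 was 14.8 to 16.0 and 19.5 to 22.5. In these libraries, 2 of each label, Neu4 and Pdgfra were higher and Xylt1 and Pcdh15 lower in the Pkcz f/f controls. These labels run with replicate number, 1 and 2 being Pkcz f/+ and 3 and 4 Pkcz f/f. In both knockouts, each of 1 genotype, replicates 1 and 2 also lay above the later replicates for Pcdh15 and below them for Neu4. For Pdgfra and Xylt1 the earlier and later replicates of Prkci cKO overlapped. Genotype and replicate number cannot be told apart in the controls, and neither was tested. Against the Pkcz f/f controls alone the log2 change of Neu4 was -0.56 (limma, SE 0.152, adjusted p = 0.115) in Prkci cKO, and that of Pcdh15 was 0.26 in Prkci cKO and 0.06 in Prkcz cKO.

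**Figure D3:**
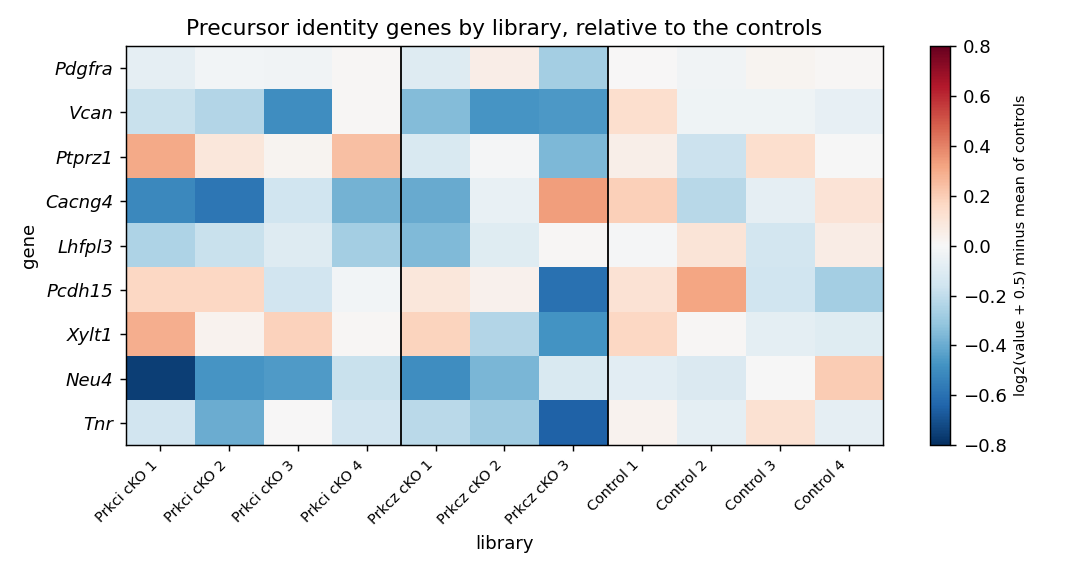
Log2(value + 0.5) of each precursor identity gene (rows) in each library (columns, Prkci cKO, Prkcz cKO and control libraries from left to right) minus the mean of the 4 controls; blue is lower and red higher. The column of Prkcz cKO replicate 3 holds the lowest value of 5 genes and the highest of Cacng4, and the Neu4 row is blue in all 7 knockout libraries.

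Levels of different genes were compared per kilobase of annotated exon (GENCODE M21, union of all isoforms), which understates genes with many rarely used exons. In controls Ptprz1 stood highest at 13.6 ± 1.18 per kilobase, followed by Lhfpl3 at 9.39 ± 0.704, Tnr at 8.68 ± 0.572 and Pdgfra at 7.81 ± 0.103 (SD, n = 4 each). Lhfpl3 and Tnr differed by about their spread. Cacng4 at 3.78 ± 0.491, Xylt1 at 2.92 ± 0.254 and Neu4 at 2.35 ± 0.252 followed, and Vcan at 1.53 ± 0.0993 and Pcdh15 at 0.766 ± 0.147 were lowest (SD, n = 4 each). Pcdh15 has 41 annotated transcripts and an exon union of 23.8 kilobases, the longest of the 9. No member overlaps another protein-coding gene in that annotation. Noncoding genes overlap each member other than Ptprz1 and Neu4, and strand-specific counting was not stated in the sources used here.

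Partners and pathway relatives of the 9 genes were examined as lists. Of 6 other genes of the PDGF family 0 passed in any comparison, with a median log2 change of 0.01 in Prkci cKO and -0.15 in Prkcz cKO. Pdgfrb, the related receptor of pericytes, averaged 27.2 in Prkci cKO, 23.5 in Prkcz cKO and 29.1 in controls, with a log2 change of -0.30 (limma, SE 0.116, adjusted p = 0.245) in Prkcz cKO. Pdgfrl, a low gene, averaged 1.14 in Prkci cKO and 0.663 in Prkcz cKO, and the log2 difference of 0.47 (SE 0.186) did not pass (limma adjusted p = 0.255). Pericytes, in which Ng2-Cre is also active, had 1 of 5 markers lower in Prkcz cKO, Rgs5, which averaged 28.7 in Prkcz cKO and 37.6 in controls and fell by 0.39 on the log2 scale (limma adjusted p = 0.0197). None of the 5 passed in Prkci cKO. Of all genes tested 0.621% were lower in Prkcz cKO, and the Rgs5 call was not examined without single libraries.

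Of 9 matrix genes that accompany versican and tenascin-R, 8 were tested and none passed, with a median log2 change of -0.05 in Prkci cKO and -0.18 in Prkcz cKO. Tnc, the tenascin of immature glia, averaged 6.93 in Prkci cKO, 5.35 in Prkcz cKO and 7.61 in controls. Its log2 change in Prkcz cKO was -0.47 (limma, SE 0.115, adjusted p = 0.0827), or -0.42 (limma adjusted p = 0.280) without replicate 3. Ncan, the proteoglycan neurocan, averaged 409.8 in Prkci cKO and 351 in Prkcz cKO, a log2 difference of 0.23 (limma, SE 0.059, adjusted p = 0.139), or 0.15 (limma adjusted p = 0.462) without that library. Of 19 genes tested for the synthesis and sulphation of chondroitin chains, 1 fell in Prkci cKO and none passed in Prkcz cKO or between the knockouts. That gene was Chst3, a chondroitin sulphotransferase, at 4.19 in Prkci cKO and 6.63 in controls. Chst3 fell by 0.60 on the log2 scale (limma, SE 0.118, adjusted p = 0.0181). The call ended when Control replicate 1 or 2, or Prkci cKO replicate 1, 2 or 3, was left out (limma adjusted p between 0.0568 and 0.0659). In Prkcz cKO Chst3 averaged 4.42, with a log2 change of -0.53 (limma, SE 0.128, adjusted p = 0.0811). Xylt2, the second xylosyltransferase, averaged 25.3 in Prkci cKO, 25.1 in Prkcz cKO and 22.1 in controls, with log2 changes of 0.19 and 0.18 (limma adjusted p = 0.246 and 0.272).

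The partners of PTPRZ1 (4 genes), AMPA receptor subunits and their auxiliary proteins (11 genes), sialidases and polysialic acid genes (6 genes) and relatives of LHFPL3 and PCDH15 (7 genes tested of 12) held no gene past the threshold in any comparison. Nrcam and Mdk had the smallest p of the PTPRZ1 partners. For Nrcam it came from a log2 difference of 0.10 (SE 0.054, limma unadjusted p = 0.0816) between Prkci cKO and Prkcz cKO. For Mdk it came from a log2 change of -0.16 (SE 0.141, limma unadjusted p = 0.280) in Prkcz cKO against controls. Cnih3, an AMPA receptor auxiliary protein, had a log2 change of 0.16 (limma, SE 0.063, adjusted p = 0.264) in Prkcz cKO. Cacng7, a relative of Cacng4, differed by 0.15 (limma, SE 0.072, adjusted p = 0.310) between Prkci cKO and Prkcz cKO. Ncam1, the main carrier of polysialic acid, had a log2 change of -0.16 (limma, SE 0.057, adjusted p = 0.229) in Prkcz cKO. Neu2, another sialidase, averaged 4.72 in Prkci cKO and 6.33 in Prkcz cKO (limma adjusted p = 0.299). Cib2, a calcium-binding partner of the hair cell channel, averaged 9.99 in Prkci cKO, 10.1 in Prkcz cKO and 8.09 in controls, with log2 changes of 0.29 (limma, SE 0.076, adjusted p = 0.0883) and 0.30 (limma, SE 0.082, adjusted p = 0.123). Lhfpl5, a relative of Lhfpl3, averaged 1.22 in Prkci cKO and 1.86 in Prkcz cKO, a log2 difference of -0.43 (limma, SE 0.178, adjusted p = 0.273).

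Other genes of precursors were set beside the 9. Of 13 further precursor genes, 4 fell in Prkci cKO and 3 in Prkcz cKO, against 1.51% and 0.621% of all genes tested. None of the 13 rose, and none passed between the knockouts. The median log2 change was -0.13 in Prkci cKO and -0.14 in Prkcz cKO, and 4 of the 13 changes lay above 0 in each. Sox10, Olig1 and Gpr17 fell in both knockouts and Olig2 in Prkci cKO, and no other gene of the list passed. Which cells of the lineage these falls came from was not tested. Sox10, a transcription factor of the lineage, averaged 33.0 ± 2.95 in Prkci cKO and 53.8 ± 8.25 in controls (SD, n = 4 each), and fell by 0.69 on the log2 scale (limma adjusted p = 0.00226). Olig1, a basic helix-loop-helix factor, averaged 83.1 ± 7.39 in Prkci cKO and 121 ± 13.0 in controls (SD, n = 4 each), and fell by 0.54 (limma adjusted p = 0.00226). Olig2, its relative, fell by 0.41 (limma adjusted p = 0.0130), a call that ended without Prkci cKO replicate 2 (limma adjusted p = 0.0568). Gpr17, a receptor of cells leaving the precursor stage, fell by 0.60 in Prkci cKO (limma adjusted p = 8.08e-04) and by 0.77 in Prkcz cKO (limma adjusted p = 1.86e-04), and passed without any single library. Sox10 fell by 0.55 in Prkcz cKO (limma adjusted p = 0.0334) and Olig1 by 0.43 (limma adjusted p = 0.0329). The Sox10 call ended without Control replicate 1, 2 or 3 or any Prkcz cKO replicate (limma adjusted p between 0.0505 and 0.112), and the Olig1 call without Control replicate 1 or 2 or any Prkcz cKO replicate (between 0.0572 and 0.112). Cspg4, the NG2 gene whose regulatory sequence drives the Cre, averaged 22.8 ± 1.60 in Prkci cKO (SD, n = 4), 21.5 ± 2.93 in Prkcz cKO (SD, n = 3) and 17.4 ± 2.25 in controls (SD, n = 4). Its log2 changes of 0.39 and 0.30 did not pass (limma adjusted p = 0.0764 and 0.224). The value in Prkci cKO passed without Control replicate 3 (limma adjusted p = 0.0380). It did not pass without any other single library (limma adjusted p between 0.132 and 0.217).

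**Figure D4:**
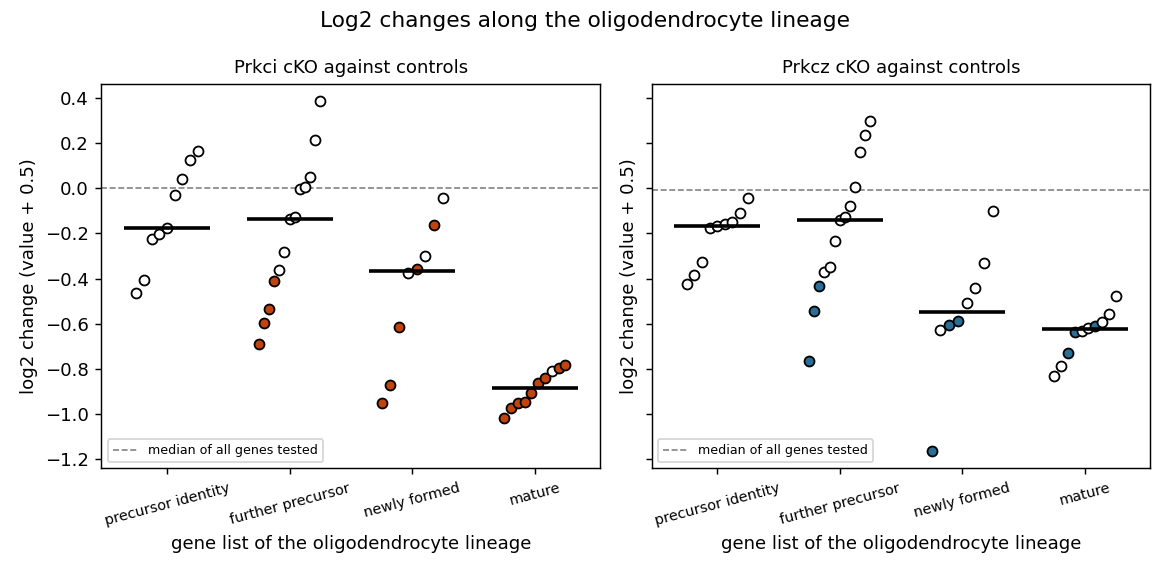
Log2 change (y axis, log2(value + 0.5) scale) of single genes in 4 lists of the oligodendrocyte lineage, for Prkci cKO and then Prkcz cKO, each against controls; filled circles passed at a limma adjusted p under 0.05, bars are list medians and the dashed line is the median of all genes tested. In Prkci cKO the medians are -0.18 for the 9 precursor identity genes, -0.13 for further precursor genes, -0.37 for newly formed and -0.89 for mature oligodendrocyte genes.

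Later stages of the lineage give the scale of these values. Of 8 genes of newly formed oligodendrocytes, 5 fell in Prkci cKO and 3 in Prkcz cKO, with medians of -0.37 and -0.55. Of 10 genes of mature oligodendrocytes, 9 fell in Prkci cKO and 3 in Prkcz cKO, with medians of -0.89 and -0.63. At the same threshold 1.51% of all genes tested were lower in Prkci cKO and 0.621% in Prkcz cKO. Without Prkcz cKO replicate 3, 2 of the 8, 0 of the 10 and 1 of the 13 further precursor genes passed in Prkcz cKO, with medians of -0.54, -0.69 and -0.11. Over all genes 13 of 14291 passed in Prkcz cKO in that fit, against 93 of 14330 with that library. The 9 precursor identity genes had a median of -0.23 in Prkcz cKO without that library. Whether the lists differ from each other was not tested. Markers of neuronal activity and of the striatum were read beside them. Of 7 immediate early genes, 6 fell in Prkci cKO and 7 in Prkcz cKO. The 7 striatal genes, none of which passed in any comparison, summed to 252 to 496 in Prkci cKO, 527 to 1228 in Prkcz cKO and 540 to 886 in controls. At a limma unadjusted p under 0.05, 7 of the 7 were lower in Prkci cKO, against 7.79% of all genes, and 0 in Prkcz cKO. Their median log2 change was -1.13 in Prkci cKO and -0.04 in Prkcz cKO. The part of either list in the values of the 9 genes was not tested.

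For each member the 2 genes of most like pattern were found by the root mean square difference of centred log2 values over the 11 libraries, among 11158 named genes whose log2 values averaged 2 or more. The nearest to Pdgfra were Phlda1 (0.0328) and Cc2d1a (0.0372), to Vcan Pik3c2b (0.0613), and to Tnr Slc16a7 (0.0675) and Sema5a (0.0914). Xylt1 was nearest to Acaca (0.0702) and Rora (0.0759), Ptprz1 to Col6a2 (0.0794) and Phka2 (0.0808), and Lhfpl3 to Cyp4f14 (0.0635) and Leprot (0.0651). Pcdh15 was nearest to Flt3 (0.0701) and Nr2e1 (0.104), Cacng4 to Klhl13 (0.0948) and Pde1b (0.0951), and Neu4 to Mpzl1 (0.0950) and Cyp20a1 (0.126). None of the 9 genes was among the 2 nearest of another.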

How the data were processed

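Cortex RNA of 11 samples, described by the labels as biological replicates, was sequenced with 1 library each. The deposited values are a normalised expression signal, 1 column per library, with the authors' exact scaling not given in the sources used here. FastQC, Trim Galore, STAR, RSEM, edgeR and the build GRCm38 are named per the submitters' processing notes, without versions. Of the low values 86.2% to 89.8% lay on steps of 1 read, too few for a count test.

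From these values limma 3.58.1 (R 4.3.3) was fitted to log2(value + 0.5) of all 11 libraries in 3 groups, with a variance trend. Genes at 1 or more in at least 3 libraries were tested (14330 of 16228), with two-sided p-values, Benjamini-Hochberg adjustment over all genes and a threshold of 0.05. Fold changes are on this scale, which understates low genes. Named genes were the 9 members, the targeted genes, Cspg4, and from each related list the 2 smallest p and every gene past the threshold; single genes of the cell type lists were named after their values were seen. The members and lists were chosen with earlier results of these data known. The fit was tested on simulated data. Alternatives changed the pseudocount, filter, scaling, variance model, groups, controls, block, weights and libraries. Genes of most like pattern were named for each member, and 1 of them is not reported here.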

Additional observations from a re-analysis of the deposited data

Results flagged for a closer look

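Vcan had 1 control library apart from the other 3. Control replicate 1 measured 24.28, and the gap to its nearest neighbour made up 0.863 of the range of the group. Of 18 sets of libraries examined this was the 1 that stood out, and chance flags about 1 in 20.

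Ptprz1 lay above the control mean in every Prkci cKO library and below it in every Prkcz cKO library. The log2 difference between Prkci cKO and Prkcz cKO was 0.33, and the test of that difference did not pass (limma adjusted p = 0.151).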

How the results depend on the processing

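In all 3 comparisons none of the 9 genes passed under the alternatives to pseudocount, filter, scaling, variance model, groups fitted and library weights. The same held with Pkcz f/f controls only, which were fitted for the comparisons with controls alone. No member changed direction under either other scaling. With the replicate block 1 member passed in Prkci cKO, Neu4 (-0.46, limma adjusted p = 0.0172), the number of genes passing between the knockouts was 73 against 43 without it, and it changed no other member's call. Libraries with the same number deviated together with r between -0.186 and 0.196, and libraries of different numbers with r between -0.229 and 0.272. Same-number r was below 0 for Control with Prkci cKO replicate 4 and for Control with Prkcz cKO replicate 1. Not every library correlated best with its own number, and the main fit does not take the numbers as pairs. In Prkci cKO the block lowered the SE of Pcdh15 from 0.154 to 0.086 and of Neu4 from 0.122 to 0.085. It raised that of Pdgfra and Tnr slightly. Whether libraries of the same number share a batch was not tested. Leaving out single libraries gave 0 to 1 members passing in Prkci cKO, 0 to 0 in Prkcz cKO and 0 to 1 between the knockouts. The log2 change of Neu4 in Prkci cKO ran from -0.56 to -0.37 and that of Xylt1 between the knockouts from 0.16 to 0.48.

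Directions turned when single libraries were left out for Pcdh15 in Prkci cKO (-0.0507 to 0.146), Pcdh15 in Prkcz cKO (-0.280 to 0.0615), Cacng4 in Prkcz cKO (-0.23 to 0.14), and between the knockouts for Pdgfra (-0.0046 to 0.16), Lhfpl3 (-0.157 to 0.0249) and Pcdh15 (-0.0210 to 0.321). Pcdh15 in Prkcz cKO also turned with Pkcz f/f controls only (0.0599). The cause was not tested.

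Counts of all genes passing moved more. In Prkci cKO 230 genes passed, against 346 with array weights, 132 with Pkcz f/f controls only and 94 to 211 without single libraries, the lowest being without Prkci cKO replicate 2 (94) and replicate 1 (147). In Prkcz cKO 93 passed, against 39 with columns scaled to the same sum, 30 with no variance trend, 28 with only the groups compared, 59 with Pkcz f/f controls only and 12 to 76 without single libraries. The libraries that moved it by over 1.5 times were Prkcz cKO replicates 2 (12) and 3 (13) and Control replicates 1 (27) and 2 (50). Between the knockouts 43 passed, 34 higher and 9 lower in Prkci cKO, against 26 and 14 with columns scaled to the same sum, 112 genes with array weights and 10 to 151 without single libraries. The libraries that did so were Prkci cKO replicates 1 (10), 2 (14) and 4 (19) and Prkcz cKO replicates 3 (16) and 1 (151). Alternatives chosen after seeing the data were those that left out libraries for unadjusted counts, context genes and list medians. Low members rest on few reads: Neu4 on 148 to 271 per library.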

Other observations

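Cspg4 and Neu4 were each set against Pdgfra within a library. Cspg4 over Pdgfra was 0.275 to 0.315 in Prkci cKO, 0.282 to 0.307 in Prkcz cKO and 0.185 to 0.253 in controls, so every knockout library lay above every control. Neu4 over Pdgfra was 0.0838 to 0.121 in Prkci cKO, 0.102 to 0.154 in Prkcz cKO and 0.130 to 0.160 in controls, and Prkcz cKO replicate 3 was the 1 knockout library within the control range. These ratios, of levels not divided by length, were chosen after the values were seen and have no test.

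Of 7 endothelial genes, 2 passed between the knockouts, Flt1 and Kdr, both higher in Prkci cKO. Of 5 pericyte genes 1 passed, Rgs5, also higher in Prkci cKO (log2 difference 0.44, limma adjusted p = 0.00890). Of all genes tested 0.3% passed between the knockouts, 0.237% being higher in Prkci cKO. How the calls of Flt1, Kdr and Rgs5 depend on single libraries, Prkcz cKO replicate 3 among them, was not examined. Kdr, a receptor for vascular endothelial growth factor, averaged 27.4 in Prkci cKO and 14.3 in Prkcz cKO, a log2 difference of 0.92 (limma adjusted p = 0.00840), and Flt1, a related receptor, averaged 46.5 in Prkci cKO and 28.8 in Prkcz cKO, a difference of 0.68 (limma adjusted p = 0.00140). Against controls 0 of the 7 endothelial genes passed in Prkci cKO and 2 fell in Prkcz cKO, where 0.621% of all genes were lower. The 7 summed to 208 to 226 in Prkci cKO, 151 to 160 in Prkcz cKO and 185 to 203 in controls, and their part in the values of the 9 genes was not tested.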
